A study of Rattus norvegicus with 4 samples.

Results

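Upstream open reading frames (uORFs) are reading frames that start and stop in the 5' leader of an mRNA, before the start codon of its annotated protein. The deposited ORF annotation of cultured rat cardiomyocytes lists 18847 ORFs, of which 1355 are classed as uORFs. The 669 longer uORFs described here are those with a coding length over 72 nt, excluding the stop codon, and the other 686 uORFs are 72 nt or shorter. The longer uORFs lie in 589 genes, and 658 of them have an annotated ORF of the same gene in the list. Within that list, membership was set by class and length alone and used no footprint count. The list itself comes with the authors' tests of frame periodicity in footprints, so it may rest in part on these footprints.

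Neonatal rat ventricular cardiomyocytes (NRVCs) were prepared from the cardiac ventricles of Sprague-Dawley rats at postnatal day 2. Cells labelled as treated received phenylephrine (PE), an agonist of alpha-1 adrenergic receptors, at 20 µM for 24 hours, and control cells are labelled untreated. The protocol text attached to all 4 libraries describes only PE, so the groups rest on the titles and the treatment label. Ribosome profiling, which sequences the mRNA fragments that ribosomes protect from RNase, was done on 2 libraries per group. The translation inhibitor cycloheximide, at 100 µg/ml, is stated for all 4 libraries, and its part in the uORF levels was not tested. NRVCs are a primary culture from which non-cardiomyocytes are removed by pre-plating, so other heart cells can remain. Whether the 2 libraries of a group are separate cultures is not in the labels, and the tests therefore compare PE with a library-to-library spread that may be technical.

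A ribosome that scans from the 5' end meets the uORF before the annotated start codon, so a translated uORF usually lowers initiation downstream, and the protein frame is reached by ribosomes that pass the uORF start or that resume scanning after its stop. Bases around a start codon affect how often it is used, with a purine at position -3 and a G at position +4, counted from the A of ATG as +1, favouring initiation. When the initiation factor eIF2 is phosphorylated under stress, uORFs of genes such as Atf4 and Ppp1r15a let the protein frame be translated. Some longer uORFs encode stable microproteins.

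Start sites of 6 members on which the results below turn are shown so that their initiation contexts can be compared. Each is 27 bases from the RefSeq promoter windows of the GRCr8 assembly, in the direction of the mRNA, with the uORF start codon in capitals. The positions are those of GRCr8 and cannot be set beside the Rnor_6.0 positions used elsewhere in the text.
Popdc2 uORF of 87 nt, chr11:75896231-75896257, minus strand: acggagagcaggATGtggctgcttcgc
Fzd1 uORF of 102 nt, chr4:30265069-30265095, plus strand: ggattgacacaaATGgtctggcggcgg
Ptgfr uORF of 84 nt, chr2:243425605-243425631, minus strand: aggtttaaggcaATGttgcaagctgag
Sgsm2 uORF of 90 nt, chr10:60257787-60257813, minus strand: ggggctcggaagATGgctgcggagctg
Ppp1r15a uORF of 87 nt, chr1:105139558-105139584, minus strand: gtggaagattacATGcgagaccccgcg
Myoz2 uORF of 75 nt, chr2:213852789-213852815, minus strand: gatgtcagctggATGccagtctcttca

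Of the 669 members, 486 had a gene symbol in the RefSeq table, and the start of 81 was found in a window by matching at least 8 residues of the listed product to the translated bases. Of these 81 starts, 49 (60.5%) had a purine at -3, 40 (49.4%) had a G at +4, 25 (30.9%) had both and 17 had neither. Among 22457 ATG triplets of any kind in the first 50 transcribed bases of all 33469 windows, 62.0% had a purine at -3, 36.7% a G at +4 and 24.8% both. The Sgsm2 start has both favoured bases, Popdc2 and Ptgfr have only the purine, Fzd1 has only the G, and Ppp1r15a and Myoz2 have neither. Starts found this way lie near the RefSeq transcript start, so they are not a sample of all members.

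Library totals over all ORFs were 11446574 to 13827599 counts, of which 0.147% to 0.169% fell on the longer uORFs. These shares were 0.149% and 0.147% in the control libraries and 0.169% and 0.164% in the PE libraries. Libraries of a group differed by slightly more than counting noise, with a chi-square of 1.61 and 1.6 per degree of freedom. Of 10 cardiomyocyte markers, 9 could be tested on their annotated ORFs, and 4 were higher and 5 lower after PE. Their median log2 fold change was -0.06. Their summed level was 84390 to 84600 CPM (counts scaled to a common library size) in control and 91710 to 92630 in PE libraries. Within this sum the mean level of Actc1 went from 24190 to 34360 CPM and that of Myh6 from 6592 to 2654 CPM. Of 7 tested fibroblast markers, 5 were lower and 1 higher after PE, and their summed level was 34440 and 34700 CPM in control against 20830 and 21070 CPM in PE libraries. Of 5 tested macrophage and leukocyte markers 4 were lower, of 5 endothelial markers 3 were lower, and of 4 smooth muscle markers 3 were lower and 1 higher. Over all annotated ORFs tested, 22.3% were higher and 22.7% lower. The 3 glial markers summed to 2.07 to 2.76 CPM in each library. A lower level can come from fewer cells of a type or from less RNA or translation per cell, which cannot be told apart in these bulk samples, and the part of these shifts in the uORF values below was not tested.

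The members were 75 to 1170 nt long with a median of 114 nt, or 38 residues, and 55 were over 300 nt. Their start codons lay a median of 110 nt from the transcript start, and 185 lay within 50 nt of it. Their stops lay a median of 99 nt before the annotated start, and 336 were less than 100 nt from it. A single member was listed in 524 genes, while 54 genes had 2 members, 7 genes had 3 and 4 genes had 4. Arginine made up 8.63% of the listed residues of all members pooled, against 5.72% in annotated ORFs, and proline and alanine were also more frequent, at 7.51% and 8.60% against 6.17% and 6.97%. Lysine, aspartate and glutamate were less frequent, at 4.01%, 3.29% and 5.11% against 5.85%, 4.98% and 7.25%. In the shorter uORFs the values were 9.35% arginine and 3.44% lysine.

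Ribosomes on a translated frame advance 3 nt at a time, so P-sites, where the peptidyl site of a ribosome sits on the mRNA, gather in the frame of the ORF. Of the 118501 P-sites on members, pooled over libraries by the authors, 77.7% were in frame 0, against 84.8% on annotated ORFs and 79.7% on shorter uORFs. This total includes members that share residues with annotated ORFs, described below, such as that of Ddx3x with 11978 P-sites. The median share in frame 0 over members was 78.6%. In 32 members under 50% of P-sites were in frame 0, and 6 of these are among the members that changed after PE, including those of S100a6, Cryab, Lgmn and Ptp4a3. The authors' table also holds p-values of frame 0 against the other frames. ORFs may therefore have been listed for their P-sites in frame 0, so the frame shares are no independent sign of translation.

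Not every listed member carried counts. Of the 669, 112 had 0 counts in all 4 libraries although 6 to 11978 P-sites had been assigned to them, 202 had counts but were too low to test, and 355 were tested. Of the 112 members with 0 counts, 98 overlapped the span of another listed ORF on the same strand, against 89 of the 557 members with counts. In addition, 72 of the 112 (64.3%) shared at least 1 run of 12 residues with an annotated ORF, and 66 shared over 50% of their runs, while 20 of the 557 members with counts (3.59%) shared any. The largest P-site total belonged to such a member, the 780 nt uORF of Ddx3x, an RNA helicase, with 11978 P-sites and 244 of its 249 runs found in annotated helicases, its own gene included. The uORF of Hsp90ab1, a cytosolic chaperone, had 3197 P-sites and 38 of 45 runs shared. Counts of 0 that stand beside assigned P-sites were not read as absence of translation. Of the 355 tested, 9 shared a run, and a single member of these 9, that of Slc9a7, changed after PE.

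The length limit fell inside a continuous range. Just inside it, the 75 nt uORF of Myoz2, a Z-disc protein that binds calcineurin, had 178, 262, 267 and 275 counts in control 1, control 2, PE 1 and PE 2, the order used throughout, and the 75 nt uORF of Nfe2l1, a transcription factor of proteasome genes, had 82, 95, 73 and 99. Just outside it, the 72 nt uORFs of Crls1, the cardiolipin synthase, and Popdc2 had 77, 65, 58 and 82 counts and 68, 57, 59 and 57 counts.

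Levels of uORF and protein frame were compared per nucleotide, in 332 pairs with a mean count of at least 10 in both ORFs. The annotated ORF of each pair is the gene's annotated ORF with most summed counts. The count minimum favours dense uORFs, most of all short ones. In these pairs the median ratio of footprint density on the uORF to that on the protein frame was 1.13, with quartiles of 0.525 and 2.23. Over all 658 members with an annotated ORF listed, whatever their counts, the median ratio from the authors' pooled P-sites was 0.775, and it was above 1 in 263 (40.0%). The ratio was above 1 in 182 pairs (54.8%), above 10 in 15 and under 0.1 in 12. The median ratio was 1.06 and 1.04 in the control libraries and 1.18 and 1.16 in the PE libraries, so the groups did not overlap. Shorter uORFs had a higher median ratio, 1.64 over 339 pairs. Within the longer uORFs the median was 1.35 in the 91 pairs of 75 to 90 nt, 1.25 in the 157 pairs of 91 to 150 nt and 0.688 in the 84 pairs over 150 nt. Because uORFs are short, the median member held 8.06% as many counts as its protein frame, and 10 held more counts than it. With P-sites in place of counts the median ratio of the 332 pairs was 0.989, and with a minimum mean count of 30 it was 1.5 over 118 pairs. The plot of density ratios shows both groups.

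**Figure D1:**
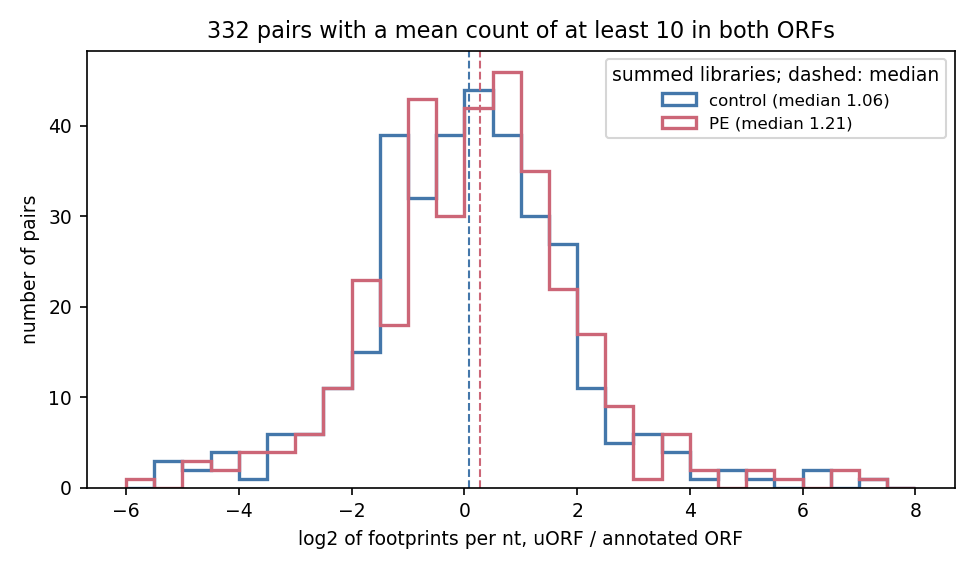
Distribution over 332 pairs of the log2 ratio of footprint density (counts per nt) on the longer uORF to that on the annotated ORF of the same gene, with the number of pairs on the y axis and a line per group of 2 summed libraries. The distributions are broad and centred near 0, and the dashed medians, 1.06 in control and 1.21 in PE on the linear scale, differ little against their width.

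By counts, the densest members relative to their protein frame, among pairs with a mean count of at least 20 in both, were those of Ppp1r15a, Zkscan5 and Frem1. Ppp1r15a encodes GADD34, the stress-induced subunit that directs a phosphatase to eIF2, and its 78 nt uORF (94, 103, 121 and 103 counts) was 93.6 times as dense as the protein frame. Its 87 nt uORF (32, 45, 73 and 69 counts) was 43.6 times as dense. The annotated ORF of Ppp1r15a had 0.175 counts per P-site, and the part of this low counting in the ratios was not tested. The 135 nt uORF of Zkscan5, a zinc-finger protein, was 35.5 times as dense, and the 96 nt uORF of Frem1, a basement membrane protein, 32.1 times, with 0.0412 counts per P-site on the annotated ORF of Frem1. From P-sites the ratios were 20.6 and 6.53 for the 78 and 87 nt uORFs of Ppp1r15a, 20.0 for Zkscan5 and 0.844 for Frem1, so the order depends on the counting. The thinnest by counts were Cryab, a small heat-shock protein abundant in heart, at a ratio of 0.0375, and Grb10, an adaptor that restrains insulin signalling, at 0.0522. The Grb10 uORF had 0.112 counts per P-site, shares 115 of its 145 runs of 12 residues with the annotated ORF of Grb10, and had a ratio of 0.483 from P-sites, against 0.0360 for Cryab.

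In CPM, without regard to length, the 8 uORFs with most footprints were those of Ucp2, Pnrc2, Ube2l3, Emilin1, Cryab and Sorbs2 and both of Popdc2. Of these 8, 6 passed the test of PE against control described below. Among all ORFs tested with a mean count of 100 or more, 27.2% were higher and 25.7% lower. The 108 nt uORF of Ucp2, a mitochondrial carrier whose uORF is known to restrain its synthesis (chr1:165507258-165507368, plus strand, Rnor_6.0), had 72.7 and 71.5 CPM in control and 165.8 and 157.1 in PE libraries. Its groups lay far apart. The 168 nt uORF of Pnrc2, a cofactor of mRNA decay, had 80.3, 79.9, 85.6 and 76.3 CPM, and its groups overlapped. The annotated ORF of Pnrc2 had 0 counts although P-sites had been assigned to it. From P-sites the uORF was 68.5 times as dense as that ORF. The 462 nt uORF of Ube2l3, a ubiquitin-conjugating enzyme, had 58.5, 57.3, 72.6 and 63.7 CPM, all PE values being higher. No annotated ORF of Ube2l3 is listed, and the uORF's 154 residues are the length of the enzyme itself. The 297 nt uORF of Emilin1, a glycoprotein of elastic fibres, had 36.9, 42.9, 41.3 and 38.0 CPM with overlapping groups.

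**Figure D2:**
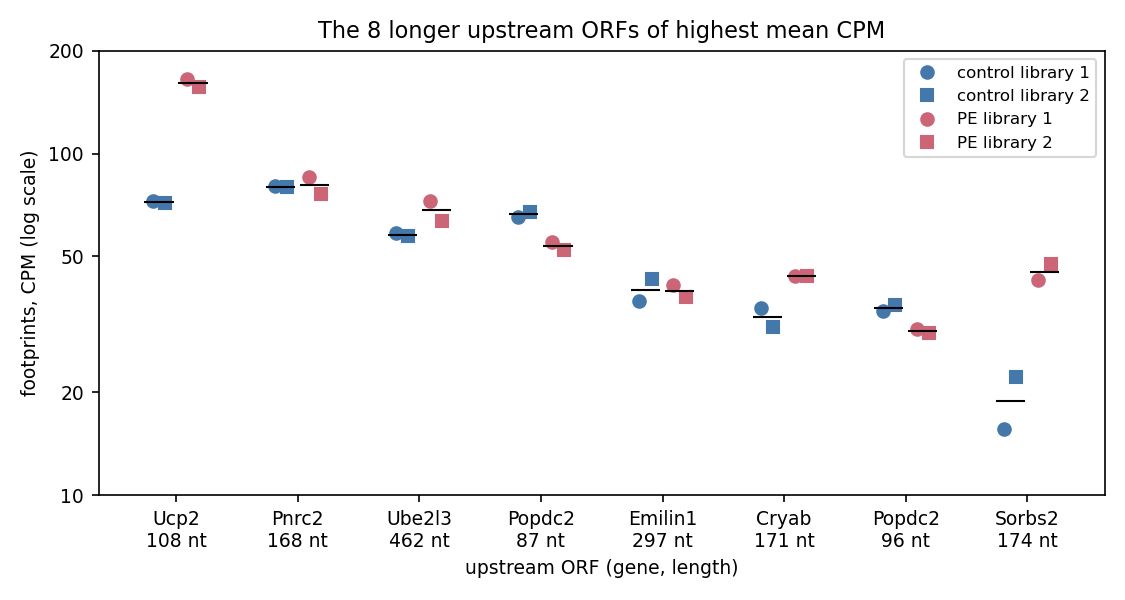
Footprint level in CPM (log scale) of the 8 longer uORFs of highest mean CPM, in 2 control libraries (blue) and 2 PE libraries (red), with a black line at each group mean and the gene and uORF length on the x axis. Ucp2 and the 174 nt uORF of Sorbs2 stand out with PE values above 157 CPM and above 42 CPM, while Pnrc2 and Emilin1 overlap between groups.

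After PE, 42 members were higher and 23 lower of the 355 tested, in the quasi-likelihood test of edgeR, with p-values adjusted by Benjamini-Hochberg over 12609 ORFs. These are 11.8% and 6.48% of the members tested, against 21.4% and 21.3% of all ORFs tested. The members' counts are low, with a median mean count of 22, and the background rises with count. At a mean count of 10 to 20, 6.29% of members were higher and 4.90% lower, against 8.19% and 8.46% of all ORFs. At 100 or more, 27.6% of 29 members were higher and 13.8% lower, against 27.2% and 25.7% of all ORFs. Both PE libraries lay above both controls in 112 members (31.5%) and below in 58 (16.3%), while the background over all ORFs was 34.4% and 34.3%. Shorter uORFs gave 55 higher and 18 lower of 369 tested.

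The 355 tested members are not all members. Only 245 reached the filter level of 0.811 CPM in all 4 libraries, with 28 higher and 14 lower, and 23 members reached it in a single group, 14 of which were among those called. The counts depend on the test and on a library: DESeq2 called 13 higher and 7 lower, and without PE replicate 2 the number lower was 13. The median log2 fold change of the members was 0.14 (quartiles -0.21 and 0.48), against 0.00 over all ORFs, 0.20 for shorter uORFs and -0.01 for annotated ORFs. Over all ORFs log2 fold change fell with ORF length, from 0.18 at 75 nt to -0.21 at 5000 nt. With that trend removed the members' median was -0.02, and 29 were higher and 31 lower. The members are part of the fit of that trend, so its removal is not an independent test of length.

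The largest rises among well-counted members were in Prrg4, S100a6, Myocd, Prkx, Rd3l, Sorbs2 and Dnajc22. Among members with a mean count of at least 20, the 252 nt uORF of Prrg4, a Gla-domain membrane protein (chr3:94808197-94808804, minus strand), had the largest rise, from 28 and 23 counts to 111 and 103. Its log2 fold change was 2.14 ± 0.24 (SE; adjusted p = 6.8e-09, edgeR), and that of the Prrg4 protein frame was 2.19. The 87 nt uORF of S100a6, a calcium-binding protein, rose from 63 and 81 to 230 and 236 counts, by 1.77 ± 0.15 on the log2 scale (adjusted p = 6.5e-12, edgeR), and only 26.8% of its P-sites were in frame 0. The 93 nt uORF of Myocd, the cardiac coactivator of serum response factor, had 7 and 16 counts in control and 39 and 28 in PE libraries, a log2 fold change of 1.62 ± 0.41 (adjusted p = 0.0016, edgeR). The protein frame of Myocd rose by 0.66. In each of these 3 uORFs the groups were well apart.

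Both uORFs of Sorbs2, a Z-disc and stress-fibre adaptor, rose. The 174 nt uORF had 15.6, 22.2, 42.8 and 47.5 CPM and the 90 nt uORF 12.4, 7.56, 25.9 and 22.7 CPM, with log2 fold changes of 1.24 ± 0.11 and 1.31 ± 0.15 (adjusted p = 2.3e-11 and 7.8e-09, edgeR). Only 51.6% of P-sites on the 174 nt uORF were in frame 0, against 88.7% on the 90 nt uORF. Ucp2 rose by 1.16 ± 0.05 (adjusted p = 1.7e-19, edgeR), the smallest p among the members. The uORFs of Prkx, a cAMP-dependent kinase (11, 14, 23 and 39 counts), Rd3l (9, 16, 22 and 37) and Dnajc22, a J-domain protein (12, 23, 31 and 47), rose by 1.38, 1.31 and 1.23. These last 3 did not pass without PE replicate 2, and Rd3l and Dnajc22 also did not pass without control replicate 1.

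Smaller rises passed in abundant members. The 171 nt uORF of Cryab had 411, 437, 525 and 539 counts, a log2 fold change of 0.40 ± 0.08 (adjusted p = 1.5e-04, edgeR), next to 0.34 for its protein frame, and 32.8% of its P-sites were in frame 0. The Ube2l3 uORF rose by 0.24 ± 0.07 (adjusted p = 0.0044, edgeR) and did not pass without PE replicate 1. The Myoz2 uORF rose by 0.38 ± 0.12 (adjusted p = 0.0074, edgeR) and did not pass without control replicate 1. With the length trend removed, neither passed, at 0.16 for Ube2l3 (adjusted p = 0.055, edgeR) and 0.20 for Myoz2 (adjusted p = 0.168, edgeR), and neither passed in DESeq2 (adjusted p = 0.069 and 0.092).

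Some further members that rose were picked after their values were seen. The 138 nt uORF of Adra1a, the alpha-1A adrenergic receptor on which PE acts, had 23, 18, 43 and 31 counts, a log2 fold change of 0.92 ± 0.35 (adjusted p = 0.033, edgeR). The protein frame of Adra1a rose by 0.73, and the uORF did not pass without control replicate 2, without PE replicate 1, with the length trend removed (adjusted p = 0.078, edgeR) or in DESeq2 (adjusted p = 0.204). The 75 nt uORF of Msmo1, a sterol synthesis oxidase, had 6, 7, 29 and 17 counts and rose by 1.88 ± 0.50 (adjusted p = 0.0024, edgeR), and it did not pass without PE replicate 1. The 141 nt uORF of Lynx1, a modulator of nicotinic receptors, had 6, 5, 27 and 23 counts and rose by 2.24 ± 0.49 (adjusted p = 3.7e-04, edgeR), beside 3.14 for its protein frame. The uORFs of Msmo1 and Lynx1 reached the filter level of 0.811 CPM only in the PE libraries, and so entered the test only through the group where they are high.

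Among members that passed with a mean count of at least 20, the 2 deepest falls were in the 108 and 90 nt uORFs of Gpr22. Gpr22 encodes an orphan G protein-coupled receptor of heart and brain. All 4 of its longer uORFs passed as lower. The 105 and 87 nt uORFs were named after their values were seen and reached the filter level only in the control libraries, and so entered the test only through the group where they are high. The 90 nt uORF had 55 and 45 counts in control and 22 and 9 in PE libraries, and the 108 nt uORF had 34, 39, 5 and 13. The 105 nt uORF had 14, 17, 3 and 2 counts and the 87 nt uORF 10, 21, 3 and 7. In all 4 the groups did not overlap. Their log2 fold changes were -1.61 ± 0.36, -1.93 ± 0.42, -2.50 ± 0.65 and -1.52 ± 0.58 (adjusted p = 4.8e-04, 3.6e-04, 0.0022 and 0.034, edgeR). The protein frame of Gpr22 went from 15.4 and 13.1 CPM to 4.93 and 3.82 CPM, a log2 fold change of -1.70. The 90 and 105 nt uORFs overlap in position, so footprints there may count for either, and the 87 nt uORF did not pass when control replicate 1, control replicate 2 or PE replicate 1 was left out.

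Srpx2 and St3gal1 followed among members with a mean count of at least 20. Another 6 members that fell at least 2-fold had lower counts. Fzd1 fell less, with more counts. The 90 nt uORF of Srpx2, a secreted sushi-repeat protein, had 31, 43, 12 and 11 counts (log2 fold change -1.59 ± 0.38, adjusted p = 0.0010, edgeR). The 81 nt uORF of St3gal1, a sialyltransferase, had 77, 99, 31 and 35 counts (-1.33 ± 0.23, adjusted p = 1.9e-05, edgeR), and both protein frames fell, by 0.88 and 0.68. The 102 nt uORF of Fzd1, a Wnt receptor (chr4:26470871-26470975, plus strand), had 10.7, 10.6, 5.6 and 5.69 CPM, a log2 fold change of -0.92 ± 0.17 (adjusted p = 4.7e-05, edgeR). In these 3 uORFs every PE value was well below every control value.

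The uORFs of Ptp4a3, a phosphatase (42, 33, 20 and 17 counts), Slc9a7, a sodium-proton exchanger of the Golgi (48, 41, 14 and 31), and AABR07037451.2 (44, 71, 30 and 28) fell by 0.95, 0.91 and 0.90. None of the 3 passed with every library left out in turn: Ptp4a3 was lost without control replicate 1 or PE replicate 2, Slc9a7 without control replicate 1 or PE replicate 1, and AABR07037451.2 without control replicate 2 or PE replicate 2. The uORF of Lgmn, a lysosomal protease, picked after its values were seen, had 87, 89, 58 and 48 counts (-0.66 ± 0.21, adjusted p = 0.013, edgeR), with 28.2% of P-sites in frame 0, and did not pass without control replicate 1 or without PE replicate 2. Popdc2 encodes a cAMP-binding membrane protein of striated muscle. Its 87 nt uORF went from 65.4 and 67.5 CPM to 55.2 and 52.2 CPM (-0.31 ± 0.06, adjusted p = 1.8e-04, edgeR) and its 96 nt uORF from 34.6 and 36.2 to 30.6 and 29.8 CPM (-0.23 ± 0.09, adjusted p = 0.031, edgeR). The 96 nt uORF did not pass without control replicate 2, PE replicate 1 or PE replicate 2. DESeq2 did not call the uORFs of Prkx, Rd3l, Dnajc22, Ptp4a3, Slc9a7, AABR07037451.2 and Lgmn, the 87 nt uORF of Gpr22 or the 96 nt uORF of Popdc2.

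Members of the same gene were then set side by side. In 28 genes with several tested members, 61 in all, the members of 19 shared the sign of their log2 fold change. The median range within a gene was 0.43, against a median combined standard error of 0.51. Gpr22, Popdc2 and Sorbs2 had at least 2 members past the threshold, and no gene had members past it in both directions.

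**Figure D3:**
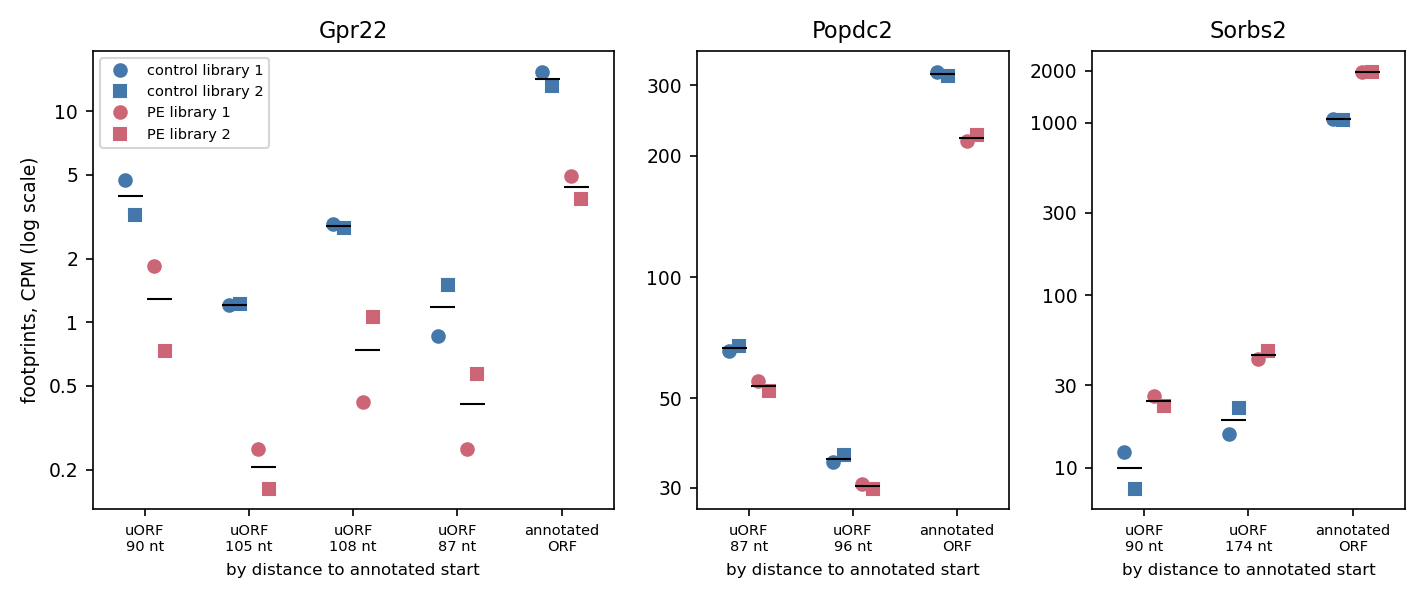
Footprint level in CPM (log scale) of the longer uORFs and the annotated ORF of Gpr22, Popdc2 and Sorbs2, ordered by distance to the annotated start, in 2 control libraries (blue) and 2 PE libraries (red) with a black line at each group mean. In each gene the uORFs and the annotated ORF moved the same way and no groups overlap.

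Footprint counts mix mRNA level and translation, and RNA-seq was not analysed here, so each uORF was set beside the protein frame of its gene. Over 338 members with both ORFs tested, 220 had the same sign in both. The correlation of the 2 log2 fold changes was 0.67 (Pearson) and 0.56 (Spearman), and 0.72 and 0.59 over the 192 members with a mean count of at least 20. It is a description across ORFs, which share libraries, scaling and in part their mRNA. Of the 39 members that rose and whose annotated ORF was tested, 28 had an annotated ORF that rose, 10 one that did not pass and 1 one that fell. Of the 23 members that fell, 17 had an annotated ORF that fell, 6 one that did not pass and 0 one that rose. The plot of both changes shows the spread around equality.

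**Figure D4:**
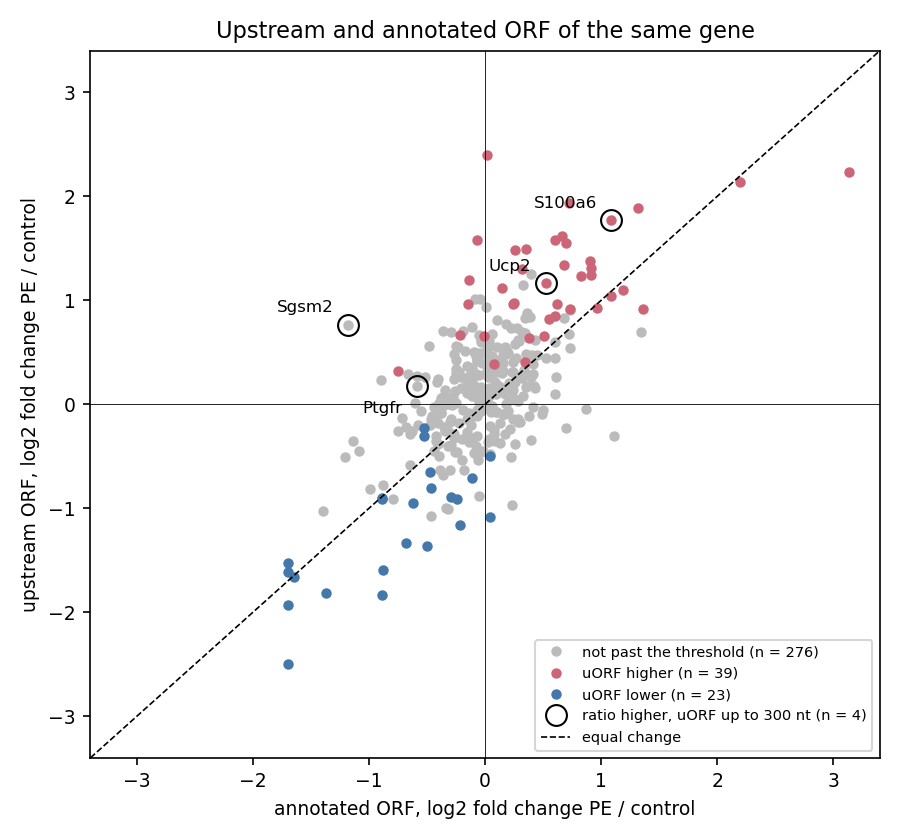
Log2 fold change (PE over control) of 338 longer uORFs against that of the annotated ORF of the same gene, with members that rose in red (39), fell in blue (23) or did not pass in grey (276), and circles on the 4 pairs with a uORF of up to 300 nt whose ratio was higher after PE. Most coloured points lie at the lower left and upper right, near the dashed line of equal change, while Ptgfr and Sgsm2 lie in the upper left.

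Whether a uORF moved differently from its protein frame was tested in the 332 pairs by the interaction of ORF and treatment. The ratio of uORF to protein frame rose after PE in 5 pairs and fell in 0, in the quasi-likelihood test of edgeR, with p-values adjusted by Benjamini-Hochberg over 921 pairs of all upstream and other non-annotated ORFs. These are 1.51% and 0% of the pairs of longer uORFs, while 1.63% of all 921 pairs were higher and 0.326% lower. At an unadjusted p under 0.05, 26 pairs (7.83%) were higher and 10 (3.01%) lower, against 10.5% and 3.15% of all pairs. Without a term for the library 9 were higher and 2 lower. The median difference in log2 fold change was 0.15 over the pairs of longer uORFs and 0.18 over all pairs, and 204 of the 332 were above 0. With the length trend removed, 2 pairs were higher and 1 lower.

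The 4 of these 5 pairs described here are Ucp2, Ptgfr, Sgsm2 and S100a6, all with a uORF of up to 300 nt. In Ucp2 both ORFs rose and the uORF rose more. The protein frame went from 76.7 and 81.6 CPM to 114.4 and 113.9 CPM, a log2 fold change of 0.53, and the density ratio from 8.13 and 7.52 to 12.4 and 11.8. The difference was 0.64 ± 0.13 (adjusted p = 0.0092, edgeR). It did not pass without PE replicate 1 (adjusted p = 0.222, edgeR) or without PE replicate 2 (adjusted p = 0.187, edgeR). In all 4 libraries the uORF was at least 7.52 times as dense as the protein frame.

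In Ptgfr, the receptor of prostaglandin F2 alpha, and Sgsm2, a regulator of Rab GTPases, the protein frame fell and the uORF did not pass. The 84 nt uORF of Ptgfr had 12, 13.9, 14.1 and 15.2 CPM against 173.9, 181.5, 119.5 and 117.8 CPM on the protein frame, and its density ratio rose by 0.76 ± 0.17 on the log2 scale (adjusted p = 0.023, edgeR). The 90 nt uORF of Sgsm2 had 12, 14, 22 and 20 counts, against 32.3, 31.1, 12.5 and 15.4 CPM on the protein frame, and its density ratio went from 1.12 and 1.12 to 5.17 and 3.68, a difference of 1.95 ± 0.42 (adjusted p = 0.018, edgeR). In S100a6 the difference was 0.68 ± 0.18 (adjusted p = 0.041, edgeR), with density ratios of 0.0457, 0.0475, 0.0748 and 0.0755. In each of these 4 pairs the ratios of the groups did not overlap. With the length trend removed, Ptgfr and S100a6 did not pass, with differences of 0.59 and 0.63 (adjusted p = 0.088 and 0.071, edgeR). No pair passed without PE replicate 2, 1 passed without PE replicate 1, 2 without control replicate 1 and 4 without control replicate 2. Ptgfr and Sgsm2 were lost without control replicate 1, PE replicate 1 or PE replicate 2, and S100a6 with any library left out.

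**Figure D5:**
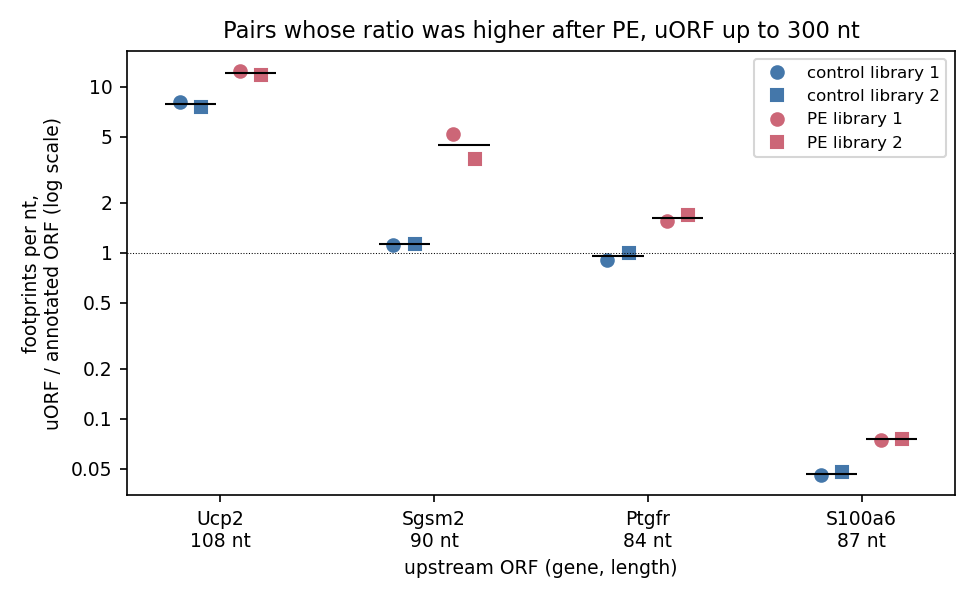
Ratio of footprints per nt on the longer uORF to footprints per nt on the annotated ORF (log scale) for the 4 genes with a uORF of up to 300 nt whose ratio was higher after PE, in 2 control libraries (blue) and 2 PE libraries (red), with a black line at each group mean and a dotted line at equal density. All PE ratios lie above all control ratios in each gene, from 0.0457 in S100a6 to 12.4 in Ucp2.

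Of the pairs whose ratio was lower after PE, Fzd1 had the smallest adjusted p. The density ratio of its uORF went from 0.479 and 0.471 to 0.293 and 0.302, while its protein frame fell by 0.24. The difference was -0.67 ± 0.18 (adjusted p = 0.058, edgeR). It passed without a library term, with a minimum mean count of 30 and with the length trend removed, at adjusted p-values of 0.0041, 0.0035 and 0.011 (edgeR). It did not pass with library totals alone or with any single library left out.

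A prepared list held genes whose uORFs are known to regulate translation or to encode a microprotein. It is not complete and does not hold Ucp2. Of the 14 longer uORFs tested in its genes, 2 passed, the 87 nt uORF of Ppp1r15a and the 81 nt uORF of Bcl2. This is 14.3%, near the 18.3% of all tested members. The 87 nt uORF of Ppp1r15a rose from 2.76 and 3.21 CPM to 6.10 and 5.61 CPM (log2 fold change 0.96 ± 0.24, adjusted p = 0.0015, edgeR), with groups well apart. Its 78 nt uORF did not pass, at 8.10, 7.35, 10.1 and 8.37 CPM (adjusted p = 0.227, edgeR), and neither did its protein frame (-0.15 ± 0.36). The Bcl2 uORF, in the mRNA of an inhibitor of apoptosis, had 2, 6, 10 and 13 counts (1.58 ± 0.64, adjusted p = 0.046, edgeR). It reached the filter level only in the PE libraries, where it is high. The Bcl2 call was lost whichever library was left out and with the length trend removed (adjusted p = 0.080, edgeR).

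The other members of those genes gave no call. Slc35a4 is known for a uORF that encodes a mitochondrial microprotein. Its 144 nt uORF had 24.3, 22.8, 20.6 and 23.7 CPM and a log2 fold change of -0.09 ± 0.11. This uORF was 154 times as dense as the protein frame, which had few counts. Whether the 144 nt uORF is the frame of that microprotein was not tested. The 210 nt uORF of Mief1, which encodes a microprotein of mitochondrial ribosome assembly, had 9.22, 5.49, 5.35 and 5.85 CPM (-0.37 ± 0.22). The 150 nt uORF of Mkks had 6.81, 6.92, 5.35 and 4.63 CPM (-0.46 ± 0.20, adjusted p = 0.067, edgeR) and the 96 nt uORF of Asnsd1 8.18, 9.91, 8.69 and 10.1 CPM (0.04 ± 0.16). The 156 nt uORF of Ifrd1 (156, 180, 165 and 139 counts) and the 150 nt uORF of Ppp1r15b, the constitutive partner of the eIF2 phosphatase (162, 185, 179 and 147), had log2 fold changes of -0.07 ± 0.14 and -0.01 ± 0.14. The uORF of Ddit3, the stress factor CHOP, had 19, 12, 10 and 7 counts (-0.79 ± 0.52), that of Azin1, the antizyme inhibitor, 9, 12, 8 and 17 (0.33 ± 0.51), and that of Tgfb3 11, 29, 25 and 16 (0.13 ± 0.42). A second uORF of Slc35a4, of 171 nt, had 11, 8, 12 and 5 counts, and a second of Mkks, of 177 nt, had 9, 26, 18 and 32. Except for the 150 nt uORF of Mkks and Ddit3 the groups of these members overlapped. The 945 nt uORF of Ksr1, a scaffold of the MAP kinase cascade and the third longest tested, had 58, 72, 55 and 68 counts, with overlapping groups and a log2 fold change of 0.00 ± 0.22.

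The machinery that acts on uORFs was read on annotated ORFs. Of 22 tested initiation and reinitiation factors, 13 rose and 1 fell, with a median log2 fold change of 0.23, against 22.3% higher and 22.7% lower and a median of -0.01 over all annotated ORFs. The 3 subunits of eIF2 rose, Eif2s1 by 0.20 ± 0.05, Eif2s2 by 0.27 ± 0.05 and Eif2s3 by 0.26 ± 0.03. The cap-binding factor Eif4e rose by 0.51 ± 0.11, the helicase Eif4a1 by 0.32 ± 0.03 and the start-codon scanning factor Eif1ax by 0.43 ± 0.05. Counting was low for Eif2s2, Eif4e and Eif4a1, at 0.487, 0.216 and 0.340 counts per P-site. The part of this low counting in their values was not tested. Bzw1, a regulator of start codon choice, rose by 0.28 ± 0.04 and its relative Bzw2 fell by 0.59 ± 0.03. Of 12 eIF2 kinases, eIF2 phosphatase subunits and eIF2B subunits, 3 rose, Ppp1ca, Eif2b2 and Eif2b3, and 0 fell, and none of the 4 kinases passed. Of 9 tested genes of nonsense-mediated decay, the pathway that degrades mRNAs with an early stop, 0 rose and 4 fell, Upf1 by 0.30, Upf2 by 0.42, Smg6 by 0.55 and Smg8 by 0.40. Smg6 had only 0.380 counts per P-site. Of the 11 tested genes on the stress-response uORF list, Uckl1 rose and Atf5 fell, and Atf4 did not pass (-0.21 ± 0.10, adjusted p = 0.071, edgeR).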

How the data were processed

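Groups came from the sample titles. Per the labels' protocols, lysates were treated with RNase I and monosome footprints sequenced; the tools were STAR 2.4.2a, Bowtie 1.1.2 and cutadapt 2.0, on Rnor_6.0, per the submitters' processing notes. No source used here names the ORF caller or counter. Footprint counts per ORF were deposited as whole numbers, not normalized. Per the file headers, their ORF table also holds a DESeq2 comparison (log2 fold change, test score, p-value), a mean signal, and P-site counts with an RPKM value per frame; of these only classes, positions, residues and P-sites are used. Unused per-sample columns numbered 0.

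Counts were filtered (filterByExpr), TMM-scaled and tested with R 4.3.3 and edgeR 4.0.16, in its robust quasi-likelihood test, over 12609 ORFs, threshold 0.05, with DESeq2 1.42.0 as an alternative; the tests were checked on simulated counts. CPM uses TMM library sizes. The pair test fits 921 pairs with each library as a term. SE is the log2 fold change over the square root of F. Rnor_6.0 spans include introns and the stop codon. Members and gene lists were chosen with earlier results of these data known. Named members are the 8 of highest CPM, the 8 highest and 8 lowest calls with a mean count of at least 20, called pairs (1 is not reported here), the 4 densest and 2 thinnest pairs, the 3 longest, those of known uORF genes, and those nearest the length limit.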

Additional observations from a re-analysis of the deposited data

How the results depend on the processing

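RLE size factors moved no call or count beyond 1.5 times. Against 42 members higher and 23 lower, DESeq2 gave 13 and 7, a test against a 1.5-fold change 11 and 5, a length over 120 nt 19 and 9, and leaving out a library 28 to 33 and 13 to 20. The median log2 fold change of 0.14 was 0.10 with library totals alone, -0.02185 with the length trend removed and 0.12 to 0.20 with a library left out. Against 5 pairs higher and 0 lower, there were 9 and 2 without a library term, 9 and 1 with a minimum mean count of 30, 2 and 1 with the length trend removed (chosen after seeing the data), 1 and 0 over 120 nt, and 0 to 4 and 0 with a library left out. The median density ratio of 1.13 was 1.5 with a minimum mean count of 30, 0.929 over 120 nt, 0.989 with P-sites (chosen after seeing the data) and 1.09 to 1.17 with a library left out. With the replicate number as a block, 41 members were higher and 22 lower, and 5 pairs higher and 1 lower (Fzd1, adjusted p = 0.015 in edgeR). The Bcl2 uORF no longer passed with that block (adjusted p = 0.053 in edgeR). Deviations of same-numbered libraries had a correlation of -0.00896. Such deviations hold much counting noise, so this value cannot show whether same-numbered libraries were prepared together. Among single members, Mkks (150 nt) passed with library totals or without the length trend, Mief1 passed without control replicate 2, and Grb10 passed without a filter or without PE replicate 1. Depth limits most members: the median standard error was 0.39 against 0.11 for annotated ORFs.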
